A study of Mus musculus with 16 samples.

Results

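The comparison concerns how the chromatin response to androgen differed between SPOP-mutant and normal mouse prostate organoids, and at which genes and locations it differed most. All 16 of the 16 ATAC-seq libraries of the series entered it. Organoids are epithelial cultures grown in a matrix. They were labelled Control (normal) or SPOPmut, and each genotype received 10 nM dihydrotestosterone (DHT) or the solvent ethanol (EtOH) for 24 h, with 4 libraries in each of the 4 groups. Both treatments were given in organoid medium from which mEGF was left out, and every library of both genotypes carries the label sgNT. The labels name neither the SPOP substitution, the promoter that drives it nor the age of the mice, and do not say whether the libraries of a group came from separate animals, lines or cultures. The p-values therefore measure only the spread between these libraries, which may be technical.

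For each of 80352 genomic regions, the share of EtOH libraries with a peak call was subtracted from the share of DHT libraries with one, and this response in Control was then subtracted from that in SPOPmut. The result, called here the difference of responses, runs from -2 to 2. It is positive where DHT added more calls, or removed fewer, in SPOPmut. For a gene or a window of the genome the same subtraction was applied to the number of called regions, that is, of regions with a peak in a given library.

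Androgens such as DHT change transcription through DNA elements built on the hexamer TGTTCT, where coactivators are recruited, often at distal enhancers first opened by forkhead factors such as FOXA1. SPOP hands target proteins to the ubiquitin ligase built on cullin 3, and its reported substrates include transcriptional coactivators, among them the products of Ncoa3 and Trim24. Its mutations in prostate cancer lie in the pocket that binds substrates. ATAC-seq marks open chromatin by the insertion of sequencing adapters by a transposase.

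Most regions with a large difference lay away from gene starts, so the few that opened or closed over a promoter are shown first. In 12 promoters the 250 bases before the start lay mostly (at least 75% of the bases) inside a region at 1 or more, and in 8 inside a region at -1 or less. From the strongest of these in each direction, 1 example is printed for each of 4 patterns of calls. Rnase13, the strongest at 1 or more, shares the pattern of Mmp7, and Nwd1 shares that of Tmem154. Both hold no motif match and are not printed, so TGANTCA is more frequent among the printed examples than among all such windows. The sequences are the RefSeq GRCm38.p6 (mm10) bases before the most upstream start of each gene, 5′ to 3′ on the strand of the gene. Capitals mark matches on either strand to TGTTCT (or its reverse complement AGAACA) and to TGANTCA, the core bound by AP-1 factors; the motifs do not share bases here. The promoter of Mmp7, the metalloproteinase matrilysin (chr9:7691840-7692089, plus strand), was called in all libraries except the 4 of SPOPmut with EtOH, and 196 of its 250 bases lie inside the called region.
Mmp7: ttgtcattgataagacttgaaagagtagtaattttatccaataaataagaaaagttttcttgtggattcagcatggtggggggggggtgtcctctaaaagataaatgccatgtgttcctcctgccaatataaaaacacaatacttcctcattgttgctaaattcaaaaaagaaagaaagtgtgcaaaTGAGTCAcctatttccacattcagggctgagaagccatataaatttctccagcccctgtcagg
That of Asb11 (chrX:164436744-164436993, plus strand), a substrate adaptor of cullin 5 ligases, was called in the 4 libraries of SPOPmut with DHT and in no other.
Asb11: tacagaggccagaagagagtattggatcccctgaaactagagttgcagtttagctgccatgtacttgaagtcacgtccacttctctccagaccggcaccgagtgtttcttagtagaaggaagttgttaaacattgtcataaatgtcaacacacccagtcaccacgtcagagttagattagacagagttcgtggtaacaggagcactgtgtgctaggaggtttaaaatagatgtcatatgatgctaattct
That of Tmem154 (chr3:84665942-84666191, plus strand), a membrane protein gene, was called in all libraries except the 4 of SPOPmut with DHT.
Tmem154: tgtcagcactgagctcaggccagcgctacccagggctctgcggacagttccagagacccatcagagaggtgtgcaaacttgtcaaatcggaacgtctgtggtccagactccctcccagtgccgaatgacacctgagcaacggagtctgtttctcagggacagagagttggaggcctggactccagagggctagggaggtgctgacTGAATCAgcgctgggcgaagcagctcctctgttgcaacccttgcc
That of Defb11 (chr8:21906433-21906682, minus strand), one of a cluster of similar defensin genes among which reads can be hard to place, was called in the 4 libraries of Control with DHT and in no other.
Defb11: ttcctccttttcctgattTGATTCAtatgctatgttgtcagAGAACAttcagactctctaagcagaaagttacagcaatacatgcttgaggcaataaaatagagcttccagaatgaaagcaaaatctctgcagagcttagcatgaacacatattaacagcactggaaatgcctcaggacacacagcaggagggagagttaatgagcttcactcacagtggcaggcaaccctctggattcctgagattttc

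Of these 20 upstream windows, 5 held TGANTCA and 3 held TGTTCT, which is 25% and 15%. None held the forkhead motif TGTTTAC. Of 32851 RefSeq promoters cut to the same 250 bases, 6.75% held TGANTCA, 16.1% held TGTTCT and 3.17% held TGTTTAC. A match describes the letters and is no evidence of binding.

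The files give peak calls and no read counts, so depth is unknown and no interval for counting error can be given; list length stands in its place. The lists held 57245 to 64521 peaks in Control with EtOH, 58038 to 63916 in Control with DHT, 60661 to 67005 in SPOPmut with EtOH and 58800 to 69644 in SPOPmut with DHT. In the last group libraries 3 and 4 held 66532 and 69644 peaks and libraries 1 and 2 held 61791 and 58800. Calls were alike within groups: of 4611 regions called in exactly 4 libraries, 2827 were called in the 4 libraries of 1 group. Whether the lists of a group were filtered against each other is not given in the sources used here; if they were, the spread within groups is understated and the limma p-values are too small. Of marker genes of prostate epithelium, 16 of 16 basal and 16 of 18 luminal genes had an assigned region, and the luminal Spdef had none. The basal Trp63 and the luminal Krt18 had called regions in every library, though Krt18 had only 1 or 2 in each Control library. Of secretory prostate genes, Pbsn, Msmb, Tgm4, Svs2 and Svs5 had no assigned region in the lists used here.

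Across the genome the difference of responses was 0 at 48999 regions, positive at 16925 and negative at 14428. It was 1 or more at 2600 regions (3.24%) and -1 or less at 1524 (1.9%). Only 40 regions lay above 1 and 31 below -1, and no region reached 2 or -2, the value of a complete response in opposite directions. By an exact permutation of treatment labels within each genotype (two-sided, 4900 arrangements), 0 regions (0%) passed an adjusted p of 0.05, and 3912 (4.87%) had an unadjusted p under 0.05, of which 2496 were positive. The smallest p was 0.00204 (adjusted 0.594). A region that responded completely in 1 genotype and stayed constant in the other cannot go below p = 0.0286 in this exact permutation test, so the regions are given as a description.

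**Figure D1:**
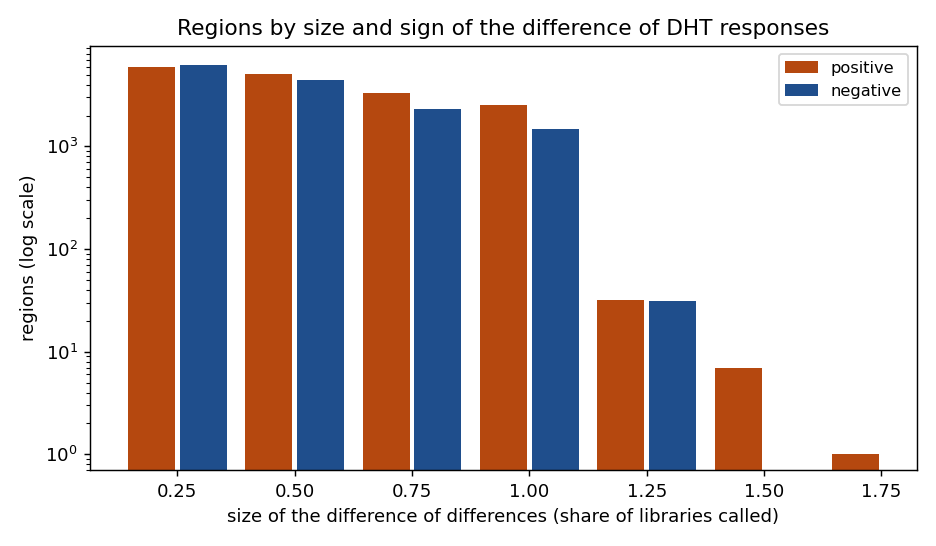
Regions by size of the difference of responses (horizontal axis, share of libraries called) and its sign; bars give the number of regions on a log axis, and the 48999 regions at 0 are left out. Positive values outnumber negative ones at 0.50, 0.75 and 1.00, both signs drop steeply beyond 1, and only positive values exceed 1.25.

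Most large positive differences were openings in SPOPmut. Of the 2600 regions at 1 or more, 1418 (54.5%) were called in the 4 libraries of SPOPmut with DHT and in no other. A further 528 (20.3%) were called only in Control with EtOH, so that DHT removed them from Control. Another 310 (11.9%) were called everywhere except in Control with DHT, and 200 (7.69%) everywhere except in SPOPmut with EtOH. The share of libraries called changed by at least 0.75 in SPOPmut and by at most 0.25 in Control at 1652 of the 2600 regions (63.5%), and the reverse held at 896 (34.5%). At 128 (4.92%) the genotypes moved in opposite directions, a group that overlaps both.

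Negative differences were shared more evenly between genotypes and between gain and loss. Of the 1524 regions at -1 or less, 514 (33.7%) were called only in SPOPmut with EtOH, 367 (24.1%) only in Control with DHT, 280 (18.4%) everywhere except in SPOPmut with DHT, and 224 (14.7%) everywhere except in Control with EtOH. By the same measure the change lay in SPOPmut at 855 (56.1%) and in Control at 619 (40.6%). The balance of the signs depended on libraries 3 and 4 of SPOPmut with DHT: without them 2664 regions lay at 1 or more and 2897 at -1 or less.

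The regions at either extreme were alike in place and strength. Within 1 kb of a gene end lay 3.15% of those at 1 or more and 3.67% of those at -1 or less, against 14.6% of all regions tested and 5.76% of the tested regions that were not called in every library. Their median widths were 499 and 503.5 bp, against 667 bp over all and 458 bp over those not called everywhere. Only 36 (1.38%) and 29 (1.9%) overlapped a promoter window, against 12.8% and 3.24%. The authors' -log10 p placed them at the median percentile 22.9 and 21 of their own lists, against 36.6 over all regions and 18.5 over those not called everywhere. Regions with a large difference were thus weak to moderate calls away from gene ends.

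The largest value of any region was at a 598 bp region inside Stim2, whose product senses calcium in the endoplasmic reticulum (chromosome 5, 54013375 to 54013972). It was called in 4 Control libraries with EtOH and 1 with DHT, and in 0 SPOPmut libraries with EtOH and 4 with DHT, so the genotypes moved in opposite directions. A value of 1.5 was found at 7 regions. They lay nearest to Acan, which encodes the cartilage proteoglycan aggrecan (60003 bp away, called in 4, 0, 2 and 4 libraries in the order just given), in the histone gene H2bc6 (4, 1, 1 and 4) and near the scaffold gene Dlg2 (30080 bp away; 3, 0, 0 and 3). The others lay in Megf9 (4, 0, 2 and 4), inside the kinase gene Hipk2 (3, 0, 1 and 4), near Lmo4 (77813 bp away; 3, 0, 0 and 3) and at a region of chromosome 12 (35687764 to 35688033) with no protein-coding gene within 100 kb (4, 1, 0 and 3). At the low end 31 regions shared the value -1.25. The 6 of these with the highest mean percentile of -log10 p lay in Phactr1, Btbd3 and Osbpl2, 33254 bp from the chromatin remodeller gene Chd2, and within 1 kb of an end of Epop and of Sox4. The Sox4 region, beside a transcription factor gene of progenitor cells (chromosome 13, 28948055 to 28948448), was called in 3 and 4 Control and 4 and 0 SPOPmut libraries, in EtOH and DHT in that order; with only peaks of signal 400 or more its value was 0.25. Another of the 31 lies in Iqca. None of these regions passed the exact permutation test after adjustment.

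Counted by gene, the response differed between genotypes at a minority of genes, more often in the positive direction. Each region was assigned to the nearest protein-coding gene body within 100 kb, which says where a region lies and not which gene it acts on. Among 9912 genes tested with limma on called regions per library, 701 (7.07%) passed an adjusted p of 0.05, of which 508 (5.13%) had a higher and 193 (1.95%) a lower response in SPOPmut. That split is 72.5% higher; it was 60% higher with counts taken as shares of each library (573 and 382), 57.2% with lists cut to equal length (607 and 454), and 49.2% without libraries 3 and 4 of SPOPmut with DHT (407 and 420). Without library 2 of Control with EtOH 765 genes passed higher. Of the 701, 275 had no spread in any group, for which the fitted error is very small, and 426 had spread (327 higher and 99 lower). By the exact permutation test 0 genes passed after adjustment and 799 had an unadjusted p under 0.05, against 2114 with limma; the smallest permutation p was 0.000408 (adjusted 0.311). With only peaks of signal 400 or more 785 genes passed, and 158 of them were among the 701.

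Among larger differences the means often moved with DHT in opposite directions in the 2 genotypes, counting a shift of any size. Of the 701 genes, 251 differed by at least 2 called regions, 193 higher and 58 lower. In 100 of the 193 the means moved up with DHT in SPOPmut and down in Control, in 71 they moved up in SPOPmut without moving down in Control, and in 22 they moved down in Control without moving up in SPOPmut. Of the 58, 37 moved down in SPOPmut and up in Control. These genes were picked by the same difference, and the share over all genes tested was not counted. Of single regions at 1 or more and at -1 or less, 4.92% and 8.27% moved in opposite directions.

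**Figure D2:**
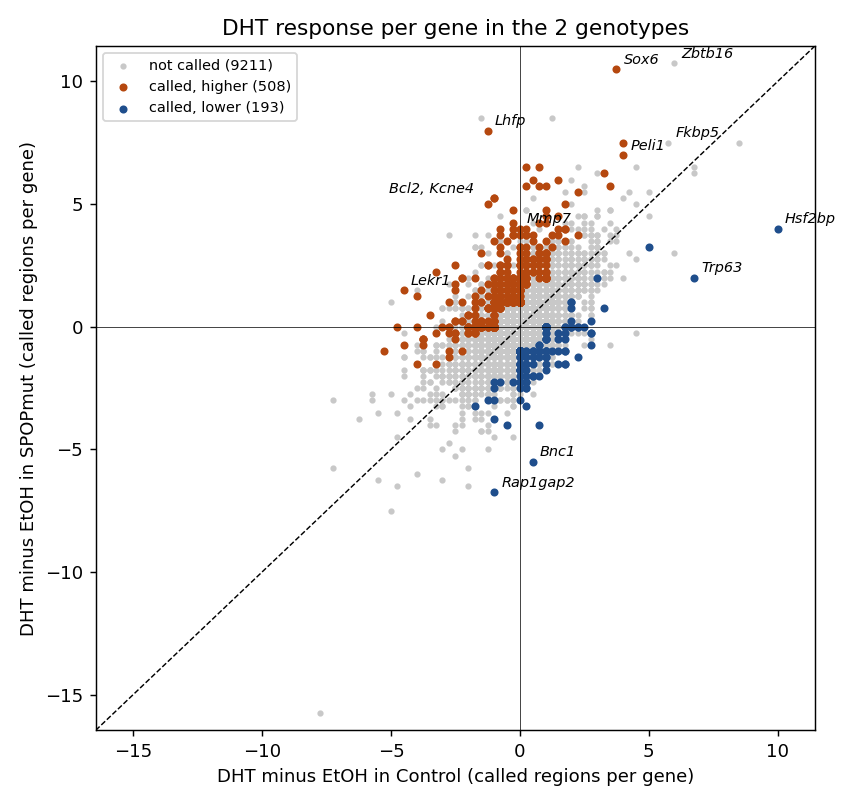
Change in called regions with DHT in Control (horizontal axis) and SPOPmut (vertical axis), means of 4 libraries per group; each point is 1 of 9912 genes, coloured points passed limma at an adjusted p under 0.05, and the dashed line marks equal responses. Lhfp lies highest above the line among genes that passed and Bnc1 and Hsf2bp lowest below it, while Zbtb16 and Fkbp5 had large responses in both genotypes and did not pass.

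The largest difference that passed was at Lhfp, a gene of the tetraspan family to which a lipoma fusion partner belongs (chromosome 3, 53041547 to 53261679). In Control the EtOH libraries held 9, 9, 10 and 9 called regions and the DHT libraries 8 each; in SPOPmut these were 13, 13, 13 and 12, then 20, 21, 21 and 21. SPOPmut with DHT stood apart from all other groups, and the Control libraries with DHT lay below those with EtOH. The difference was 9.25 regions (SE 0.426, limma adjusted p = 8.57e-10), with the smallest exact permutation p possible (0.000408). It kept its sign and passed limma in all 30 other limma settings run, from 4.5 to 10. Of its 22 regions, 9 had a difference of 1, spread from 53096302 to 53348453 and up to 86363 bp beyond the gene. Of those, 8 were called only in SPOPmut with DHT, and the other, 1202 bp wide at 53204208 to 53205409, was called in every library except those of Control with DHT. Only 7 of the 22 were called in all 16 libraries.

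**Figure D3:**
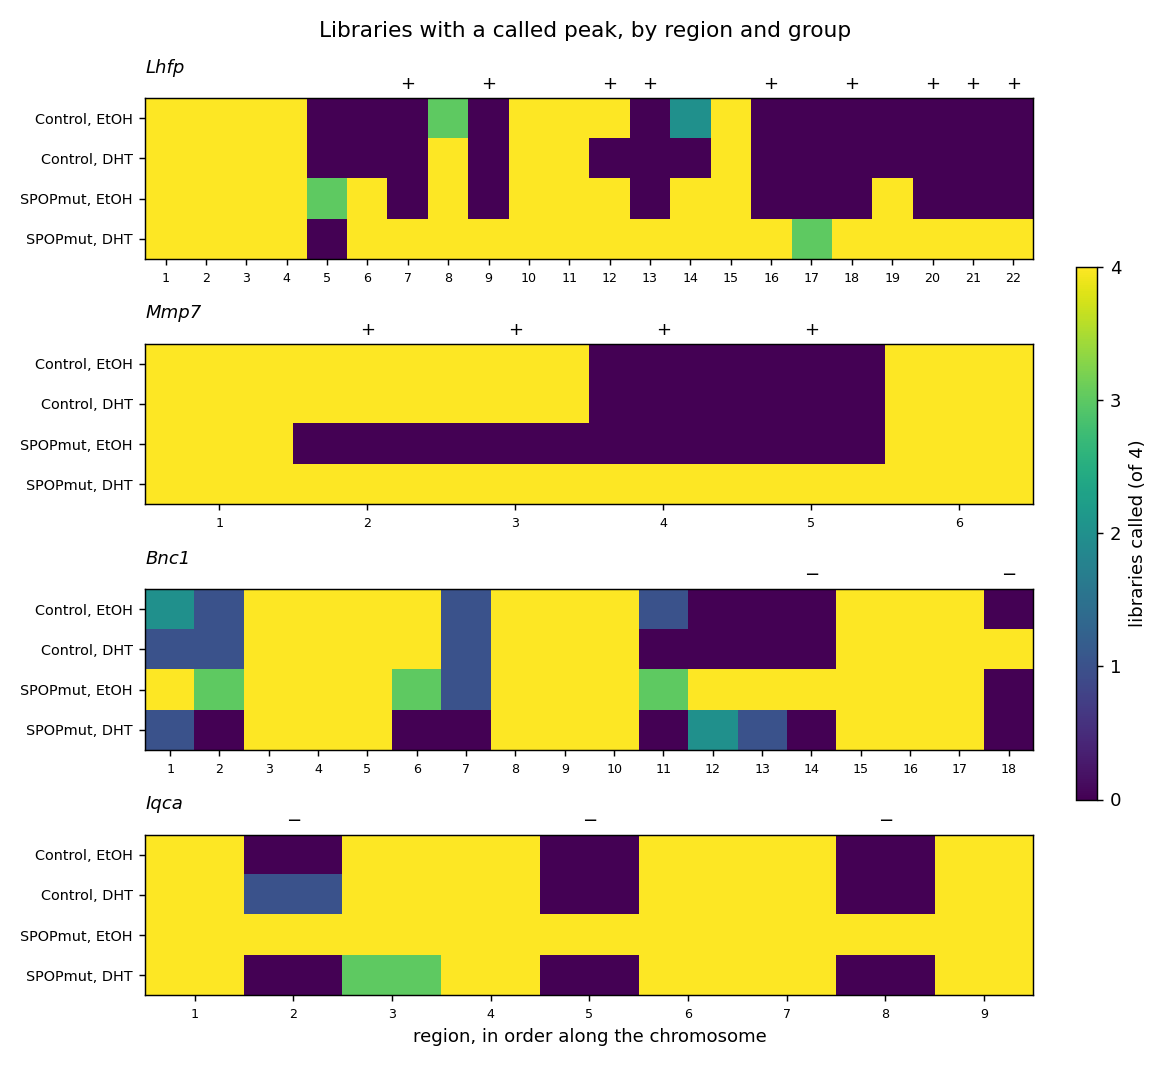
Libraries with a call (colour, 0 to 4) at each assigned region of Lhfp, Mmp7, Bnc1 and Iqca, in order along the chromosome and not to scale, with 1 row per group; + and − mark differences of responses of 1 or more and of -1 or less. Lhfp shows 9 and Mmp7 4 positive marks; Bnc1 shows 2 and Iqca 3 negative marks.

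Kcne4, which encodes an accessory subunit of voltage-gated potassium channels (chromosome 1, 78816911 to 78820032), had a similar pattern. Its libraries held 2 called regions each in Control with EtOH and 1 each with DHT, then 5, 4, 5 and 5 in SPOPmut with EtOH and 10, 8, 11 and 11 with DHT. The groups did not overlap, and the difference was 6.25 (SE 0.733, limma adjusted p = 4.67e-05, exact permutation p = 0.000408). All 11 of its regions lie outside the gene body, those at a difference of 1 up to 88164 bp away. Bcl2, the anti-apoptotic gene also used as a basal marker, had 12, 10, 12 and 14, then 11 in each Control library with DHT, against 16, 15, 16 and 14, then 20, 19, 20 and 23 in SPOPmut. SPOPmut with DHT was highest without overlap, and the difference was 6.25 (SE 1.25, limma adjusted p = 0.00542); 4 regions inside the gene, from 106612265 to 106657421 on chromosome 1, were called in SPOPmut with DHT alone. With lists cut to equal length the Bcl2 difference was 2.5 and did not pass (limma adjusted p = 0.0658).

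Sox6, a SoxD-class transcription factor gene (chromosome 7, 115470872 to 116040776), responded in both genotypes. Control held 23, 24, 23 and 22 called regions with EtOH, then 27, 26, 26 and 28 with DHT. SPOPmut held 24 in each EtOH library, then 31, 32, 37 and 38 with DHT. The DHT libraries lay above the EtOH libraries in both genotypes, further in SPOPmut, and libraries 3 and 4 were again the highest. The difference of 6.75 (SE 1.82) passed limma narrowly (adjusted p = 0.0404) but not the exact permutation (p = 0.168), and it missed limma in 13 of 30 other limma settings.

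Mipol1 lies beside Foxa1 on chromosome 12. Its libraries held 10, 7, 7 and 7, then 8 each in Control, and 12, 13, 13 and 13, then 18, 19, 19 and 21 in SPOPmut, a difference of 6.25 (SE 0.988, limma adjusted p = 8.27e-04). Its 3 regions at a difference of 1 lie between 57430178 and 57496776, at the end of Mipol1 that faces Foxa1 (57540628 to 57548029). Foxa1 itself, the pioneer factor gene, had 14 regions and a difference of 1.25 that did not pass (limma adjusted p = 0.117), and passed in 1 of 30 other limma settings, at 1.25 with only regions within 25 kb (limma adjusted p = 0.00472).

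**Figure D4:**
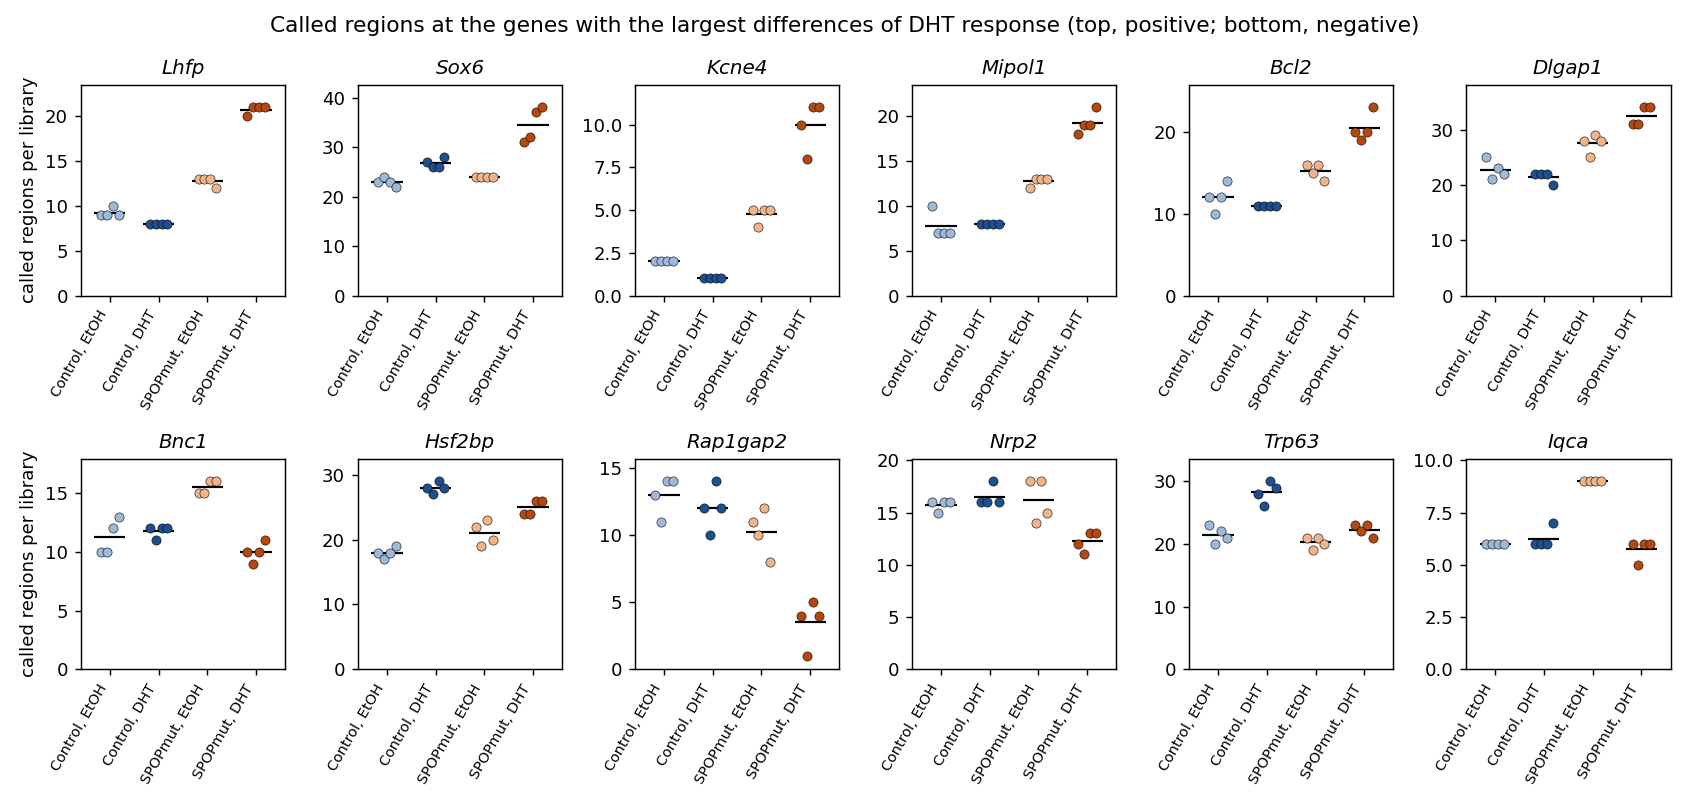
Called regions per library (vertical axis, from 0) at the 6 genes per direction with the largest difference of responses among those that passed limma; points are libraries and bars the mean of 4. In the top row SPOPmut with DHT is the highest group at all 6 genes, and in the bottom row it is the lowest at Bnc1, Rap1gap2, Nrp2 and Iqca but not at Hsf2bp and Trp63.

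At 3 further genes nearly all of the change was in SPOPmut. Vps13b, which encodes a lipid transfer protein of the Golgi, held 7 in each library, then 8, 7, 8 and 8 in Control, and 7, 7, 7 and 8, then 12, 13, 15 and 15 in SPOPmut. The kinase gene Hipk2 held 10 to 12 and 11 to 12 in Control and 10 to 11, then 14, 16, 17 and 18 in SPOPmut. Ikzf2, which encodes the zinc finger factor Helios, held 16 to 18 and 17 to 20 in Control and 17 to 19, then 23 to 25 in SPOPmut. The differences were 5.75, 5.5 and 5.5, and each passed limma (adjusted p = 2.71e-04, 0.00280 and 0.00473), but with only peaks of signal 400 or more those of Vps13b and Hipk2 were 1.25 and did not pass. At these genes Control with EtOH and with DHT overlapped and SPOPmut with DHT stood above every other library.

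At 3 others a decline in Control made up more of the difference. Lekr1 held 19, 17, 19 and 17, then 14, 12, 16 and 12 in Control, and 14 to 16, then 15 to 18 in SPOPmut (difference 6.0, limma adjusted p = 0.0112); it missed limma in 5 of 30 other limma settings, among them signal 400 (2.75, limma adjusted p = 0.244). Mid1, a ubiquitin ligase gene on the X chromosome, held 19 to 21, then 16 to 18 in Control and 23 to 24, then 24 to 27 in SPOPmut (5.5, limma adjusted p = 0.00283, the same sign and call in all 30 other limma settings). Ankrd50, which acts in endosomal recycling, held 15 to 20, then 14 to 15 in Control and 18 to 19, then 18 to 21 in SPOPmut (5.25, limma adjusted p = 0.0237), but the call was lost in 8 of 30 other limma settings and the sign turned with only peaks of signal 400 or more (-0.50). Dlgap1, a synaptic scaffold gene, combined both movements: 21 to 25, then 20 to 22 in Control and 25 to 29, then 31 to 34 in SPOPmut (6.25, limma adjusted p = 0.0228, lost in 4 of 30 other limma settings and likewise -0.50 at signal 400). Foxp1, a forkhead repressor gene, had a larger difference of 10 that did not pass (SE 3.23, limma adjusted p = 0.0711); it passed in 4 of 30 other limma settings and was picked after its value was seen.

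Among lower responses, Bnc1 and Hsf2bp led at -6.0. Bnc1 encodes basonuclin 1, a zinc finger protein of basal cells of stratified epithelia. It held 10, 10, 12 and 13, then 12, 11, 12 and 12 called regions in Control, and 15, 15, 16 and 16, then 10, 9, 10 and 11 in SPOPmut. Only SPOPmut with EtOH stood apart, above the other groups (SE 0.915, limma adjusted p = 5.86e-04, exact permutation p = 0.0110). Of its 18 regions 17 lie outside the gene, and the call ended when only regions within 25 kb were counted. At signal 400 the difference was -1 and did not pass (limma adjusted p = 0.392), and the call was lost in 3 of 30 other limma settings in all.

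Hsf2bp, which encodes a protein of meiotic recombination, had the opposite make-up, with DHT above EtOH in both genotypes. It held 18, 17, 18 and 19, then 28, 27, 29 and 28 in Control and 22, 19, 23 and 20, then 24, 24, 26 and 26 in SPOPmut. The response of Control was 10 regions and that of SPOPmut 4.0. The difference passed limma (SE 1.2, adjusted p = 0.00527) but not the exact permutation (p = 0.187), and its sign turned with only peaks of signal 400 or more (0.50).

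Trp63, the master regulator of basal cells (chromosome 16, 25683763 to 25892088), also responded more in Control. It held 23, 20, 22 and 21, then 28, 26, 30 and 29 called regions in Control and 21, 19, 21 and 20, then 23, 22, 23 and 21 in SPOPmut. Control with DHT stood above every other library, and the difference was -4.75 (SE 1.24, limma adjusted p = 0.0335, exact permutation p = 0.123); it missed limma in 16 of 30 other limma settings. Of its 34 regions, 2 were called only in Control with DHT and 1 everywhere except in SPOPmut with DHT.

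At Rap1gap2 and Nrp2 the calls were fewest in SPOPmut with DHT. Rap1gap2, which switches off the GTPase Rap1, held 13, 11, 14 and 14, then 12, 10, 14 and 12 in Control and 11, 10, 12 and 8, then 4, 1, 5 and 4 in SPOPmut (-5.75, SE 1.59, limma adjusted p = 0.0465, missed in 16 of 30 other limma settings). Nrp2, a receptor for semaphorins and VEGF, held 15 to 16, then 16 to 18 in Control and 14 to 18, then 11 to 13 in SPOPmut (-4.75, limma adjusted p = 0.0333). Its call was lost in 15 of 30 other limma settings, and with only peaks of signal 400 or more its sign turned (2.75).

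Smaller negative differences of -3.5 to -3.0 were of 2 kinds. In the first, SPOPmut lost with DHT calls that Control barely had. Enpp2, which encodes the lysophosphatidic acid enzyme autotaxin, held 7 to 8, then 7 in Control and 15 in each SPOPmut library with EtOH, then 10, 10, 12 and 12 (-3.5, limma adjusted p = 0.00268). Iqca held 6, then 6 to 7 in Control and 9, then 5 to 6 in SPOPmut (-3.5, limma adjusted p = 7.71e-06), with the same sign and call in all 30 other limma settings. Fam78b had no call in any Control library and 6, 4, 6 and 4, then 2 in each SPOPmut library (-3.0, limma adjusted p = 0.00361; 0.25 with only peaks of signal 400 or more).

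In the second kind mean calls rose with DHT in Control and fell in SPOPmut, by nearly as much at Gal3st2b and Dyrk2. Slc6a2, the noradrenaline transporter gene, held 6, 4, 5 and 5, then 8, 7, 9 and 7 in Control and 0 to 1, then 0 in SPOPmut (-3.5, limma adjusted p = 0.00366; -2.25 and not passed at signal 400, limma adjusted p = 0.0999). Idh2, a mitochondrial isocitrate dehydrogenase gene, held 3 to 6, then 6 to 8 in Control and 6 to 7, then 4 to 6 in SPOPmut (-3.5, limma adjusted p = 0.0436, missed in 17 of 30 other limma settings). The kinase gene Dyrk2 held 8, then 9 to 10 in Control and 8 to 9, then 5 to 8 in SPOPmut (-3.25, limma adjusted p = 0.0248). It lost its call in 10 of 30 other limma settings and turned to 0.75 with only peaks of signal 400 or more. Gal3st2b, one of a set of similar sulfotransferase genes among which reads can be hard to place, held 0 to 2, then 2 to 4 in Control and 2, then 0 to 1 in SPOPmut (-3.25, limma adjusted p = 0.00732). Hrh1, a histamine receptor gene picked after its value was seen, had a larger mean difference of -8 that did not pass (SE 7.37, limma adjusted p = 0.581); 1 of its SPOPmut libraries with DHT, at 15, stood apart from the other 3.

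At the androgen targets Fkbp5, Tmprss2, Zbtb16 and Tsc22d3 mean calls rose with DHT in both genotypes. At others, such as Azgp1 and Slc38a4, they did not, and the response of the whole list within each genotype was not tested. Of 40 androgen response genes tested, 1 passed higher, Azgp1, and 0 lower, with a median difference of -0.25 against 0 over all genes and backgrounds of 5.13% and 1.95%. Fkbp5, a receptor co-chaperone gene, held 7, 6, 7 and 8, then 12, 13, 14 and 12 in Control and 9, 8, 9 and 8, then 17, 14, 16 and 17 in SPOPmut. The response was 5.75 in Control and 7.5 in SPOPmut, and the difference of 1.8 did not pass (SE 0.968, limma adjusted p = 0.308); it was -0.50 with lists cut to equal length and -0.25 at signal 400. Zbtb16, an androgen-induced zinc finger repressor gene, held 2, 1, 3 and 3, then 10, 7, 8 and 8 in Control and 1, 1, 1 and 2, then 11, 9, 14 and 14 in SPOPmut. Its difference of 4.75 lay just outside the threshold (SE 1.45, limma adjusted p = 0.0695, exact permutation p = 0.359) and passed in 8 of 30 other limma settings.

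Tsc22d3, a steroid-induced leucine zipper gene, responded by 6.75 and 6.25 regions in Control and SPOPmut (difference -0.50, limma adjusted p = 0.853; 2 at signal 400). Tmprss2, the androgen-driven protease gene, had a difference of 0.75 (limma adjusted p = 0.792), which turned negative in 7 of 30 other limma settings and passed at -3.5 with peaks of signal 400 or more and at -3.0 with equal list length. Slc38a4, an amino acid transporter gene, stood at -2.25 (limma adjusted p = 0.0658) and passed in 5 of 30 other limma settings. Azgp1, which encodes a zinc-binding secretory glycoprotein, held 1, 0, 2 and 2, then 0, 0, 1 and 1 in Control and 3, 1, 3 and 2, then 5, 4, 4 and 5 in SPOPmut. Its difference of 3.0 passed limma (SE 0.773, adjusted p = 0.0306) and missed it in 12 of 30 other limma settings.

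Of 27 genes for steroid receptors and partner factors 0 passed in either direction (median 0.25), against 5.13% higher and 1.95% lower over all genes. With other settings 3 of those named here did, Foxa1 as given above and Nfib and Esr1. Hoxb13 had a difference of 0.50 (limma adjusted p = 0.736; -0.25 at signal 400) and Nfib one of -3.25 (limma adjusted p = 0.422; -4.75 with equal list length, where it passed, limma adjusted p = 0.00342). Esr1, the estrogen receptor alpha gene, went from a mean response of -4.0 in Control to -6.0 in SPOPmut, a difference of -2.0 that did not pass (limma adjusted p = 0.341). With only peaks of signal 400 or more it was -4.75 and passed (limma adjusted p = 0.00390). Of 15 genes for SPOP and its reported substrates 1 passed higher and 0 lower (median 0.50), against the same backgrounds. That was Dek, a chromatin protein gene, with 3 to 4 called regions in both Control groups and 1, 1, 1 and 2, then 4, 3, 3 and 3 in SPOPmut (difference 2.25, limma adjusted p = 0.0132, lost in 3 of 29 other limma settings; -0.25 at signal 400). Spop and Ncoa3 had differences of 0. At Trim24 the difference of 3.0 lay near the threshold (SE 0.870, limma adjusted p = 0.0616) and passed in 7 of 30 other limma settings.

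Among secretory prostate genes, 2 of 5 tested passed higher and 0 lower (median 1), against backgrounds of 5.13% and 1.95%. The summed calls of the list were 9 to 14 per library in Control with EtOH, 11 to 14 with DHT, 11 to 13 in SPOPmut with EtOH and 20 to 21 with DHT. Besides Azgp1 this was Mmp7, which held 4 called regions in every Control library, 2 in each SPOPmut library with EtOH and 6 in each with DHT. Its difference of 4.0 had no spread in any group, and exact permutation gave p = 0.0286, the smallest possible with a constant Control. Of its 6 regions 4 had a difference of 1: its promoter, printed above, and a region at 7689176 to 7690447 on chromosome 9 were absent only from SPOPmut with EtOH, and the others, at 7697306 to 7697915 inside the gene and 7720538 to 7720846 beyond it, were called only in SPOPmut with DHT. Mmp7 had the same sign and call in all 29 other limma settings that tested it. Leaving out 1 library could not change its difference, because its counts did not vary within groups. The setting limited to genes with spread within groups did not test it.

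Epithelial lineage genes passed in both directions, again against backgrounds of 5.13% higher and 1.95% lower. Of 15 luminal genes 0 passed higher and 1 lower (median 0.50): Krt18, a simple epithelial keratin gene, held 1, then 1 to 2 in Control and 6, 5, 5 and 5, then 3, 2, 3 and 4 in SPOPmut (difference -2.5, SE 0.528, limma adjusted p = 0.00814). At signal 400 this was -0.75 and did not pass (limma adjusted p = 0.521), and the call was lost in 3 of 30 other limma settings in all. Of 11 proximal luminal progenitor genes 0 passed. Of 13 basal genes 2 passed higher (Bcl2, and Krt15 by 1 region without spread) and 1 lower (Trp63), with a median of 0.25.

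Markers of other cell types were looked at because their calls could enter the same comparison. The backgrounds for each count are again 5.13% higher and 1.95% lower. Of 6 endothelial genes tested 1 passed higher and 1 lower. Cdh5, VE-cadherin, held 6 in each Control library with EtOH, then 3, 2, 3 and 3, and 1, then 0 to 1 in SPOPmut (difference 3.0, limma adjusted p = 3.93e-05; -0.25 at signal 400), all 6 of its regions lying outside the gene. With only 1 call in each SPOPmut library with EtOH, a loss as large as that in Control could not occur there. Tek, an angiopoietin receptor gene, held 2, then 2 to 3 in Control and 1, then 0 in SPOPmut (-1.8, limma adjusted p = 2.63e-04, lost in 3 of 29 other limma settings; 0.50 at signal 400). The 8 endothelial genes together held 51 to 56 called regions per library in Control with EtOH, 48 to 53 with DHT, 40 to 48 in SPOPmut with EtOH and 35 to 44 with DHT.

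Of 4 immune genes 1 passed higher: Ptprc, which encodes the leukocyte antigen CD45, held 4, then 3 to 4 in Control and 5, then 7 to 8 in SPOPmut (3.25, limma adjusted p = 3.87e-05). Its regions at a difference of 1 lie up to 71213 bp from the gene, and counting only regions within 25 kb it was 1.25 and did not pass (limma adjusted p = 0.0666). Summed calls of the 8 immune genes were 11 to 13, 8 to 11, 12 to 14 and 13 to 16 per library in the same order, and Adgre1 had no region. Of 7 stromal genes 1 passed lower (Acta2, by 1 region without spread), with summed calls over 11 genes of 19 to 24, 20 to 24, 18 to 21 and 14 to 20, and Col1a2 and Tagln without a region. Of 5 neuroendocrine genes 0 passed. The part of other cell types in the results was not tested, and a change in the number of cells of a type cannot be told apart from a change within cells in these bulk samples.

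Signalling and inflammatory lists mostly stayed near the background of 5.13% higher and 1.95% lower. Of 18 Wnt, Notch and Hedgehog genes 0 passed higher and 1 lower: the ligand gene Wnt4, which held 10 to 11, then 13 in Control and 13 to 14 in both SPOPmut groups (-2.25, SE 0.426, limma adjusted p = 0.00366). Its call was lost in 5 of 30 other limma settings, among them equal list length (limma adjusted p = 0.0566) and regions within 25 kb (-1.25, limma adjusted p = 0.0821). Axin2, a Wnt feedback gene, had a like difference of -2.25 that did not pass (limma adjusted p = 0.0659; 1.25 at signal 400) but passed in 5 of 29 other limma settings, at -2.5 with equal list length (limma adjusted p = 0.00229), and Tcf7l2 one of 4.25 that did not pass (limma adjusted p = 0.249) but did in 1 of 30. Of 22 TGF-beta and BMP genes 1 passed higher and 1 lower. Tgfb2, a ligand gene, held 9 to 10, then 6 to 7 in Control and 9, then 7 to 8 in SPOPmut (1.8, limma adjusted p = 0.0383, exact permutation p = 0.305; -0.75 at signal 400). It lost its call in 19 of 30 other limma settings. Bmp4 lost 1 region in SPOPmut, without spread, and its call was lost in 4 of 28.

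Of 20 EGF receptor and ERK feedback genes 0 passed (median 0.50), including Egfr (-1.25, limma adjusted p = 0.581; -4.0 with equal list length, where it passed, limma adjusted p = 0.0339) and Nrg1 (4.0, limma adjusted p = 0.372). Of 11 AP-1 and immediate early genes 1 passed higher, the zinc finger gene Egr2, which held 5 in each Control library with EtOH, then 3 to 4, and 3 in every SPOPmut library (1.8, limma adjusted p = 2.63e-04; 0.25 and not passed at signal 400, limma adjusted p = 0.794). Of 13 interferon and inflammation genes 2 passed higher and 0 lower, of which 1 is described. Peli1, a ubiquitin ligase gene of innate signalling, held 6, 5, 5 and 6, then 9, 9, 10 and 10 in Control and 4, then 11 in each SPOPmut library (3.0, SE 0.400, limma adjusted p = 1.81e-04, exact permutation p = 0.383). At signal 400 this was 2.0 and did not pass (limma adjusted p = 0.226). Its responses were thus 4.0 and 7.0, in the same direction.

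Of 11 cell cycle genes 0 passed (median 0), and Myc, tested on its own, had a difference of 0. Of 8 housekeeping genes 0 passed, although Ywhaz stood at 4.5 (SE 1.51, limma adjusted p = 0.0778; -1.75 at signal 400). It passed in 2 of 30 other limma settings, at 4.0 with equal list length (limma adjusted p = 0.00688).

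Some genes held several regions with a large difference; whether they held more than their number of regions alone would give was not tested. At least 1 region at 1 or more was assigned to 1713 of the genes tested, at least 3 to 81, and at least 5 to Chm (5 of 11 regions), Glis3 (5 of 64), Lhfp (9 of 22), Rarb (5 of 32) and Stk3 (5 of 21). At least 1 region at -1 or less was assigned to 1127 genes, at least 3 to 22, and 5 to Lrmda alone (of 36). Some of these genes carried both kinds: the retinoic acid receptor gene Rarb had 5 and 2, and Rad51b, a recombination gene, 3 and 4 of its 88. Of these, Lhfp, Chm (difference 4.5, limma adjusted p = 4.70e-05) and the Hippo kinase gene Stk3 (5.0, limma adjusted p = 0.00121) passed. They were picked after their values were seen.

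In windows of 1 Mb, 57 of 1981 (2.88%) passed limma, 52 (2.62%) higher and 5 (0.252%) lower, with a median difference of 1 over all windows. By exact permutation, with the limits given for genes, 0 passed after adjustment and 156 had an unadjusted p under 0.05, against 314 with limma. Leaving out 1 library gave 150 windows without library 2 of Control with EtOH, 136 without library 2 of SPOPmut with DHT, and 30 to 36 without any of 8 others. The count was 20 without libraries 3 and 4 of SPOPmut with DHT, of which 13 were higher, and stood at 270 (158 higher and 112 lower, 58.5% higher) as shares of each library, so the excess of higher windows (91.2%) was much smaller on that scale.

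The largest window difference, 14.75 (SE 3.19, limma adjusted p = 0.00936), was on chromosome 11 from 112000001 to 113000000, which holds Sox9, a progenitor transcription factor gene. Of its 71 regions 59 had no protein-coding gene within 100 kb and 12 were assigned to Sox9. The libraries held 54, 45, 51 and 55, then 45, 40, 46 and 44 in Control and 49, 45, 50 and 47, then 51, 53, 57 and 59 in SPOPmut. The groups overlapped in part, with lower values under DHT in Control and higher ones in SPOPmut.

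The next windows lay on chromosome 13 from 114000001 (11, limma adjusted p = 0.00240), which holds Itga2, Fst and Arl15, with 44 to 49 called regions in SPOPmut with DHT against 31 to 37 in all other libraries, and on chromosome 8 from 8000001 (11, limma adjusted p = 0.00864), with the ephrin gene Efnb2. On chromosome 15 from 35000001 (10.75, limma adjusted p = 2.19e-04) lie Vps13b and Stk3, with 35 to 38 called regions in SPOPmut with DHT and 17 to 26 elsewhere. The window of Lhfp on chromosome 3 differed by 9.75 (limma adjusted p = 6.07e-04).

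Of the windows that passed lower, the largest was on chromosome 16 from 23000001, with St6gal1, which encodes a sialyltransferase, and Bcl6, a transcriptional repressor gene (-7.25, SE 1.54, limma adjusted p = 0.00864). It held 23 to 26 and 24 to 26 in Control, 29 to 30 in SPOPmut with EtOH and 21 to 24 with DHT, so that SPOPmut with EtOH stood apart. The others were on chromosome 14 from 24000001 (-5.0, with Dlg5), chromosome 3 from 149000001 (-3.5, with Adgrl2), chromosome 7 from 104000001 (-3.25, in a cluster of similar Trim and olfactory receptor genes) and chromosome 9 from 33000001 (-2.75), where 5 regions without a gene within 100 kb held 3, then 5 calls in Control and 0 to 1, then 0 in SPOPmut.

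On the scale of whole chromosomes no difference passed. By exact permutation 0 of 21 chromosome shares (0%) had an adjusted p under 0.05, and 5 had an unadjusted p under 0.05. The lowest adjusted p, 0.0657, was shared by chromosomes 3 (0.108 percentage points), 9 (-0.0733) and X (0.116). The shares of called regions within 1 kb of a gene end, inside genes and outside differed by -0.504, 0.211 and 0.292 percentage points (exact permutation adjusted p = 0.573 for each).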

How the data were processed

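Peaks had been called in each library from reads aligned with Bowtie2 2.3.4.1 to mm10 and handled with SAMtools 1.8; the caller was Genrich, per the submitters' processing notes. The deposited lists give for each peak a signal (from just above 200), a −log10 p and a score of up to 1000, all the authors' own and taken only as an order of peaks inside their own list. Peaks that shared 1 bp or more were joined, giving 86616 regions, and 6264 called in 1 library were left out. Genes came from a RefSeq table of GRCm38.p6, and 73249 regions (91.2%) were assigned, the shortest gene taken where several covered the midpoint. Genes with at least 2 regions whose calls varied and windows with at least 5 regions were fitted with limma 3.58.1 (R 4.3.3; 4 group means, trended and robust moderation, Benjamini-Hochberg). Permutation tests are two-sided and exact, and assume no DHT effect. On simulated data (9912 genes) the fit found 10%, 74% and 94% of differences of 2, 4 and 6 regions, 0% of differences of 1, and 4 of 9712 unchanged genes. The simulation took the observed spread as true, and its rounding could add spread to genes that had none. It therefore does not measure the error rate where spread is understated or absent, as in 275 of the 701 genes called. Python 3.11.15 was used otherwise. The genes described are the 12 per direction with the largest difference among those that passed, the 5 windows and 6 regions per direction with the largest, up to 4 members of each of 18 lists, and a fixed set (Spop, Fkbp5, Trp63 and others); a few genes that this rule takes are not reported here. Members and lists were chosen with earlier results of these data known. Signal tracks were not used here.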

Additional observations from a re-analysis of the deposited data

Results flagged for a closer look

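At the following genes the DHT response in called regions differed between genotypes by the interaction test (limma, adjusted p under 0.05). A higher response means that DHT added more calls, or removed fewer, in SPOPmut. Among the higher genes, mean calls did not rise with DHT in SPOPmut at Cdh5, Egr2, Krt15 and Tgfb2. Among the lower ones they rose there at Hsf2bp and Trp63. Higher in SPOPmut were Lhfp (9.25), Sox6 (6.75), Kcne4, Mipol1, Bcl2 and Dlgap1 (6.25 each), Lekr1 (6.0), Vps13b (5.75), Hipk2, Mid1 and Ikzf2 (5.5 each), Ankrd50 (5.25), Mmp7 (4.0), Ptprc (3.25), Cdh5, Azgp1 and Peli1 (3.0 each), Dek (2.25), Tgfb2 and Egr2 (1.8 each), and Krt15 (1). Lower were Bnc1 and Hsf2bp (-6.0 each), Rap1gap2 (-5.75), Nrp2 and Trp63 (-4.75 each), Iqca, Enpp2, Slc6a2 and Idh2 (-3.5 each), Gal3st2b and Dyrk2 (-3.25 each), Fam78b (-3.0), Krt18 (-2.5), Wnt4 (-2.25), Tek (-1.8), and Bmp4 and Acta2 (-1 each). The same test passed for 1 Mb windows on chromosomes 11 (14.75), 13 and 8 (11 each), 15 (10.75) and 3 (9.75), and for lower windows on chromosomes 16 (-7.25), 14 (-5.0), 3 (-3.5), 7 (-3.25) and 9 (-2.75).

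Single libraries stood apart from the other 3 of their group at Mipol1 (10 called regions in 1 Control library with EtOH), Dlgap1 (20 in 1 Control library with DHT), Ikzf2 (16 in 1 Control library with EtOH and 20 in 1 with DHT), Nrp2 (18 in 1 Control library with DHT), Nrg1 (20 in 1 Control library with DHT), Hrh1 (15 in 1 SPOPmut library with DHT), Slc38a4 and Myc (14 and 18 in 1 SPOPmut library with EtOH) and Esr1 (19 in 1 Control library with EtOH and 12 in 1 with DHT). How often chance alone sets a library apart in this way was not computed for such small counts, many of them tied.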

How the results depend on the processing

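Regions and genes called show presence above the authors' threshold, and without read counts a weak loss cannot be told from a call that just missed it. Leaving out 1 library at a time gave 682 to 951 genes (473 to 765 higher, 179 to 276 lower) and 30 to 150 windows (25 to 144 higher, 5 to 8 lower). Chromosomes that passed then numbered 0 to 3 (3 without Control DHT library 3), and 1 with equal list length. Exact permutation, which assumes no DHT effect and has the limits given for genes, called 0 genes and 0 windows in either direction. Genes with spread within groups gave 414 (323 higher, 91 lower), genes with at least 5 regions 364 (275 and 89), equal list length 1061 (454 lower), shares of each library 382 lower, and leaving out libraries 3 and 4 of SPOPmut with DHT 420 lower. Windows gave 270 (158 and 112) as shares, 98 (84 and 14) at signal 400, 333 (194 and 139) with equal list length, 8 lower with regions in at least 4 libraries, and 20 (13 higher) without those libraries, which also gave 2897 regions at -1 or less. Cutting the lists by signal or length changed which weak peaks counted; otherwise the cause was not tested.

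Signs turned with signal of at least 400 at Dlgap1 and Ankrd50 (-0.50), Hsf2bp (0.50), Nrp2 (2.75), Dyrk2 (0.75), Fam78b (0.25), Fkbp5 (-0.25), Tmprss2 (-3.5), Tsc22d3 (2), Hoxb13, Cdh5 and Dek (-0.25), Tek (0.50), Tgfb2 (-0.75), Axin2 (1.25), Ywhaz (-1.75) and the Sox4 region (0.25). With equal list length they turned at Fkbp5 (-0.50), Tmprss2 (-3.0), Tsc22d3 (1.0) and Hoxb13 (-0.25). Tmprss2 was also -0.29 as shares, -0.25 with regions in at least 4 libraries, -0.75 and -1.25 without library 3, or 3 and 4, of SPOPmut with DHT, and ranged from -1.08 (without its library 4) to 1.58 when 1 library was left out. Tsc22d3 was 0.25 over the body and 10 kb either side and, with 1 library left out, -1.0 to 0.083 (without Control DHT library 3); Hoxb13 was then -0.25 (without SPOPmut DHT library 1) to 0.75.

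By the correlation of their deviations, libraries that share a number did not deviate together (mean r = 0.016 over 24 pairs, none above 0.1). Numbers were therefore not taken to pair them in the main fit. List length did follow the number in part: library 2 held the fewest peaks in every group (57245, 58038, 60661 and 58800). Whether the numbers mark shared batches was not tested. With the replicate block 846 genes (618 higher, 228 lower) and 154 windows (140 and 14) passed, against 701 and 57 in the main fit. Of 16 libraries, 4 correlated best with their own number.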
